A study of Mus musculus with 20 samples.

Results

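Methionine, serine and choline metabolism meet in the liver, and 10 genes of this network were followed in the liver RNA of 20 male mice: *Bhmt*, *Gnmt*, *Mat1a*, *Cbs*, *Cth*, *Pemt*, *Chpt1*, *Chka*, *Phgdh* and *Psat1*. They were chosen by symbol with earlier results of these data known, and all 10 are among the 54532 genes of the count table. From the same counts, the study had already named *Chpt1* among its genes lowered after gastric bypass on both diets. That set was taken at an unadjusted p under 0.05 on each diet (DESeq2). The study also placed *Chpt1* in the subset that changed the opposite way with a high-fat diet after sham surgery. The mice were C57BL/6 males fed for 12 weeks with a high-fat diet (HFD). They then had sham surgery or a Roux-en-Y gastric bypass (RYGB), after which they were kept for 8 weeks on chow or on HFD. The 4 groups of 5 mice are called Sham Chow and Sham HFD after sham surgery, and RYGB Chow and RYGB HFD after the bypass, so that all 20 mice had an HFD history and the chow groups were mice returned to chow, with no group that was lean from the start. One liver library was made per mouse, from mice drawn at random out of a larger cohort, and the age of the mice is not given in the sources used here. In the study the Sham HFD mice were heavier than the other groups, so surgery and body weight cannot be told apart in Sham HFD vs. RYGB HFD, nor diet and body weight in Sham Chow vs. Sham HFD. The surgery by diet interaction also holds the Sham HFD mice, so body weight cannot be told apart there either.

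The pathways form a ring with side branches. *Mat1a* makes S-adenosylmethionine, the methyl donor of the cell, from methionine in hepatocytes. *Gnmt* spends it on glycine, and *Pemt* spends it on making phosphatidylcholine from phosphatidylethanolamine. The homocysteine that results is either methylated back to methionine by *Bhmt*, with betaine made from choline, or passed by *Cbs* and *Cth* to cysteine through transsulfuration. *Chka* and *Chpt1* make phosphatidylcholine by the other route, from choline itself, and *Phgdh* and *Psat1* catalyze early steps of serine synthesis, which is low in the normal liver.

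The deposited values are reads counted per gene, between 14604854 and 22537498 per mouse, and are given here as normalized expression in CPM (read counts scaled to a common library size, with TMM factors between 0.916 and 1.13). A gene was tested if 3 or more mice had it at 2 CPM or above, which 12289 genes and 8 of the 10 met, and was called changed at an adjusted p-value under 0.05 (edgeR's quasi-likelihood test with Benjamini-Hochberg adjustment, two-sided). *Phgdh* and *Psat1* did not pass this filter. The labels name no sequencing batch. The defining hepatocyte markers were the most abundant of all the marker lists examined, with a summed level of at least 66393 CPM for 6 genes in every mouse, against at most 465 CPM for 6 macrophage genes. RYGB Chow replicate 3 stood apart from the other mice in several genes described here, and had the largest TMM factor, so results that rest on it are given with and without it.

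Per kilobase of exon in Sham Chow, the order of levels was *Gnmt* at 1504 ± 232 CPM per kb (SD, n = 5 mice), *Mat1a* at 948 ± 75.9, *Bhmt* at 429 ± 147, *Cth* at 184 ± 64.0, *Pemt* at 129.7 ± 11.1, *Cbs* at 65.9 ± 7.52, *Chpt1* at 37.2 ± 5.77 and *Chka* at 3.35 ± 1.17. *Phgdh* and *Psat1* stood last, at 0.0831 ± 0.0728 and 0.0767 ± 0.0809 CPM per kb. The mice of neighbours in this order overlapped for *Bhmt* and *Cth*, for *Cth* and *Pemt*, and for *Phgdh* and *Psat1*, and did not overlap for the other neighbours. Levels per length rest on the merged exons of GENCODE M21, and the transcripts present in liver may be shorter.

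**Figure D1:**
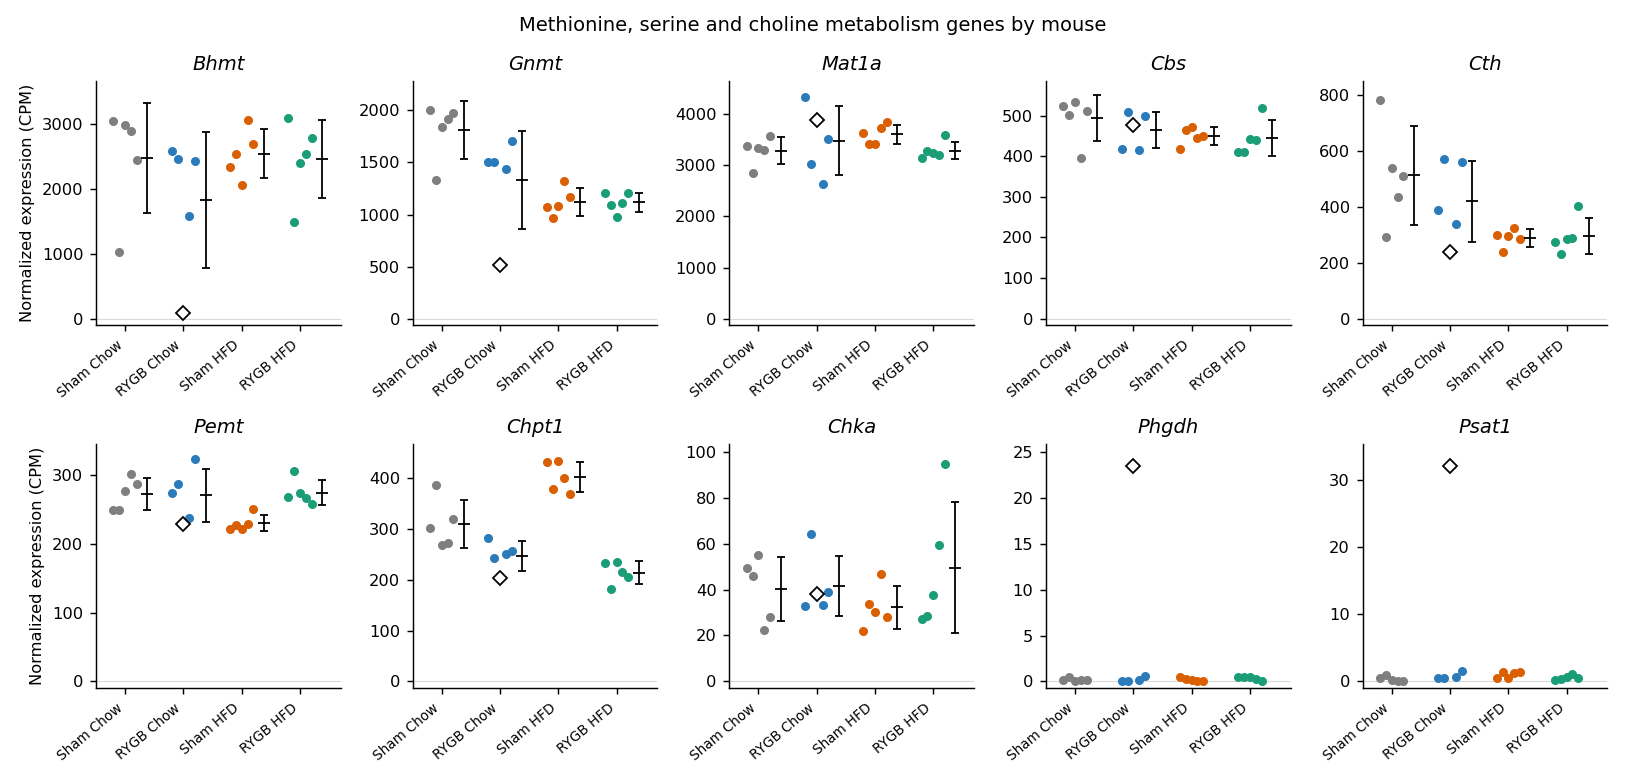
Normalized expression (CPM, linear axis) of the 10 genes in each of the 20 mice. Points are mice, the open diamond is RYGB Chow replicate 3, and bars give the mean ± SD of the 5 mice, left out for *Phgdh* and *Psat1*. *Chpt1* was higher in all 5 Sham HFD mice (369 to 433 CPM) than in all 5 RYGB HFD mice (182 to 235 CPM), and *Phgdh* and *Psat1* rose above 2 CPM in RYGB Chow replicate 3 alone.

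*Chpt1* (ENSMUSG00000060002, GRCm38 chromosome 10 from 88452745 to 88504073, minus strand) encodes cholinephosphotransferase, which joins CDP-choline to diacylglycerol in the last step of the choline route. It was the one gene of the 10 called in Sham HFD vs. RYGB HFD, where 8.54% of all tested genes were called higher and 7.9% lower. Its levels were 432, 379, 433, 401 and 369 CPM in the Sham HFD mice and 234, 182, 235, 215 and 205 CPM in the RYGB HFD mice. Every RYGB HFD mouse lay below every Sham HFD mouse, which held for 14.7% of all tested genes in either direction. The log2 fold change was -0.91 (SE 0.104, 95% interval -1.13 to -0.70, adjusted p = 9.09e-06), a level 0.532 times that of Sham HFD, and the exact permutation test gave p = 0.00794 (two-sided), the smallest that 5 mice against 5 allow. In bulk tissue, fewer cells of a type and less RNA per cell cannot be told apart. *Sycp3* lies inside *Chpt1* on the other strand.

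In Sham Chow the *Chpt1* levels were 301, 387, 269, 272 and 319 CPM, and in RYGB Chow 282, 242, 203, 251 and 256 CPM. The chow groups thus lay between Sham HFD and RYGB HFD in their means, with 309.7 ± 48.0 CPM in Sham Chow and 247 ± 28.8 CPM in RYGB Chow (SD, n = 5 mice each). *Chpt1* was higher in Sham HFD than in Sham Chow, by 0.38 on the log2 scale (SE 0.103, adjusted p = 0.0127), with 1 Sham Chow mouse inside the range of Sham HFD. The corresponding value in RYGB Chow vs. RYGB HFD was -0.21 (SE 0.103, adjusted p = 0.292). The surgery by diet interaction, the HFD effect in RYGB mice less that in sham mice, was -0.58 (SE 0.146, adjusted p = 0.0244), a call made for 2.48% of tested genes above 0 and 2.58% below 0. Between the chow groups, RYGB Chow against Sham Chow, it was -0.33 (SE 0.103), with an unadjusted p of 0.0047 in the edgeR model and an adjusted p of 0.257 (0.539 without RYGB Chow replicate 3). Each group enters 2 of these contrasts, so they are not independent of one another. *Chpt1* kept its 3 calls in all 20 models that each left out 1 mouse.

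*Chka*, whose product choline kinase starts the same route, was not called in any contrast. Its levels ranged from 22.0 to 46.9 CPM in Sham HFD (median 30.3) and from 27.1 to 94.9 CPM in RYGB HFD (median 37.8), and these ranges overlapped. RYGB HFD against Sham HFD gave a log2 fold change of 0.62 (95% interval -0.04 to 1.27, adjusted p = 0.189), and 0.24 without RYGB HFD replicate 5, the mouse with the highest level. In Sham Chow and RYGB Chow it lay at 40.2 ± 14.1 and 41.5 ± 13.0 CPM (SD, n = 5 mice each). The paralog *Chkb* did not pass the filter on low counts.

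*Pemt* (ENSMUSG00000000301), which encodes the methyltransferase of the second route to phosphatidylcholine, stood just outside the threshold in both contrasts with Sham HFD. Its levels were 222, 228, 223, 229 and 251 CPM in Sham HFD and 269, 306, 274, 267 and 259 CPM in RYGB HFD, so that the groups did not overlap. The log2 fold change was 0.25 (SE 0.0874, 95% interval 0.07 to 0.44), with an adjusted p of 0.0515 from edgeR and p = 0.00794 in the exact permutation test. In Sham Chow vs. Sham HFD it was -0.24 (SE 0.0874, adjusted p = 0.0529), with Sham Chow at 249, 249, 277, 301 and 288 CPM, and here 2 Sham Chow mice lay below the highest Sham HFD mouse. The value in the first contrast passed the threshold in 3 of 8 other settings and in 4 of 20 models without 1 mouse: without RYGB Chow replicate 3, 4 or 5 or Sham HFD replicate 5, with adjusted p-values of 0.0363, 0.0471, 0.0302 and 0.0490. The value in the second contrast passed in 3 of 8 settings and without Sham Chow replicate 1 or 2 or RYGB Chow replicate 3, 4 or 5, with adjusted p-values of 0.0404, 0.0409, 0.0357, 0.0489 and 0.0304. The levels in RYGB Chow were 275, 287, 230.0, 237 and 324 CPM, and these ran below and above the Sham Chow mice. The interaction was 0.26 (SE 0.123, unadjusted p = 0.0444 in edgeR, adjusted p = 0.226).

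*Gnmt* (ENSMUSG00000002769, chromosome 17 from 46725664 to 46729168, minus strand) encodes glycine N-methyltransferase, which disposes of excess S-adenosylmethionine. It was lower in Sham HFD than in Sham Chow, a contrast where 10.9% of tested genes were called higher and 10.7% lower. Its levels were 2008, 1328, 1838, 1921 and 1977 CPM in Sham Chow and 1071, 964, 1084, 1322 and 1165 CPM in Sham HFD. The lowest Sham Chow mouse lay just above the highest Sham HFD mouse, and groups did not overlap for 16.5% of tested genes. The log2 fold change was -0.69 (SE 0.205, 95% interval -1.12 to -0.27, adjusted p = 0.0199), and its adjusted p was 0.0515 without Sham HFD replicate 2.

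The RYGB groups gave *Gnmt* levels of 1502, 1503, 513, 1439 and 1708 CPM on chow and of 1203, 1095, 975, 1108 and 1202 CPM on HFD. All RYGB Chow mice other than replicate 3 lay above all RYGB HFD mice. In RYGB Chow vs. RYGB HFD with all mice, 1.99% of tested genes were called higher and 1.65% lower. Groups did not overlap for 5.05% with all mice, a share not computed without replicate 3. Without that mouse, 158 of 12258 tested genes were called higher and 194 lower. The log2 fold change of *Gnmt* in RYGB Chow vs. RYGB HFD was -0.26 (SE 0.204, adjusted p = 0.544) with it, and -0.47 (SE 0.110, adjusted p = 0.0247) without it. In Sham Chow vs. RYGB Chow it was -0.44 (SE 0.205, unadjusted p = 0.0414 in edgeR, adjusted p = 0.440) with this mouse and -0.24 without it. Sham HFD and RYGB HFD overlapped, at 1121 ± 133 and 1117 ± 93.8 CPM (SD, n = 5 mice each), and the 95% interval of their log2 difference ran from -0.43 to 0.42.

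*Cth*, which encodes the enzyme that releases cysteine from cystathionine, was also lower in Sham HFD than in Sham Chow. The Sham Chow mice were at 782, 292, 539, 435 and 512 CPM and the Sham HFD mice at 299, 239, 296, 323 and 284 CPM, with 1 Sham Chow mouse inside the range of Sham HFD. The log2 fold change was -0.83 (SE 0.229, 95% interval -1.31 to -0.35, adjusted p = 0.0140). In RYGB Chow vs. RYGB HFD, with 387, 571, 238, 339 and 561 CPM against 275, 231, 284, 288 and 404 CPM, it was -0.50 (SE 0.229, unadjusted p = 0.0403 in edgeR, adjusted p = 0.240). Without RYGB Chow replicate 3 it was -0.65. The interaction was 0.33 (95% interval -0.34 to 1.00), so a difference between the HFD effects of sham and RYGB mice was not shown. *Cth* overlaps a short gene model on its own strand, and the reads of the pair may have been split.

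*Mat1a* and *Cbs*, the S-adenosylmethionine synthetase of the liver and the first enzyme of transsulfuration, were called in no contrast. *Mat1a* was between 2637 and 4342 CPM in all 20 mice and *Cbs* between 395 and 534 CPM. The 95% intervals of the 4 contrasts lay within -0.35 and 0.35 for *Mat1a* and within -0.32 and 0.17 for *Cbs* on the log2 scale. In the exact permutation test *Mat1a* had p = 0.0317 between Sham HFD and RYGB HFD and p = 0.0476 between Sham Chow and Sham HFD, unadjusted for the 40 tests of this kind, with log2 fold changes of -0.13 and 0.13 and edgeR adjusted p-values of 0.414 and 0.368.

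*Bhmt* (ENSMUSG00000074768, chromosome 13 from 93616675 to 93637961, minus strand) varied more between mice of 1 group than between groups. It stood at 3038, 1019, 2981, 2888 and 2433 CPM in Sham Chow and at 2578, 2454, 91.4, 1573 and 2431 CPM in RYGB Chow. Sham HFD ranged from 2060 to 3059 CPM and RYGB HFD from 1488 to 3082 CPM. RYGB Chow replicate 3 was at 91.4 CPM, below the other 19 mice, of which the lowest had 1019 CPM. RYGB Chow against Sham Chow gave a log2 fold change of -0.44 (95% interval -1.42 to 0.55, adjusted p = 0.793) with this mouse and -0.13 (95% interval -0.64 to 0.38) without it, and no contrast was called. Its neighbour and paralog *Bhmt2* stood at 110.1 CPM in the same mouse against 128 to 202 CPM in the other 19.

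**Figure D2:**
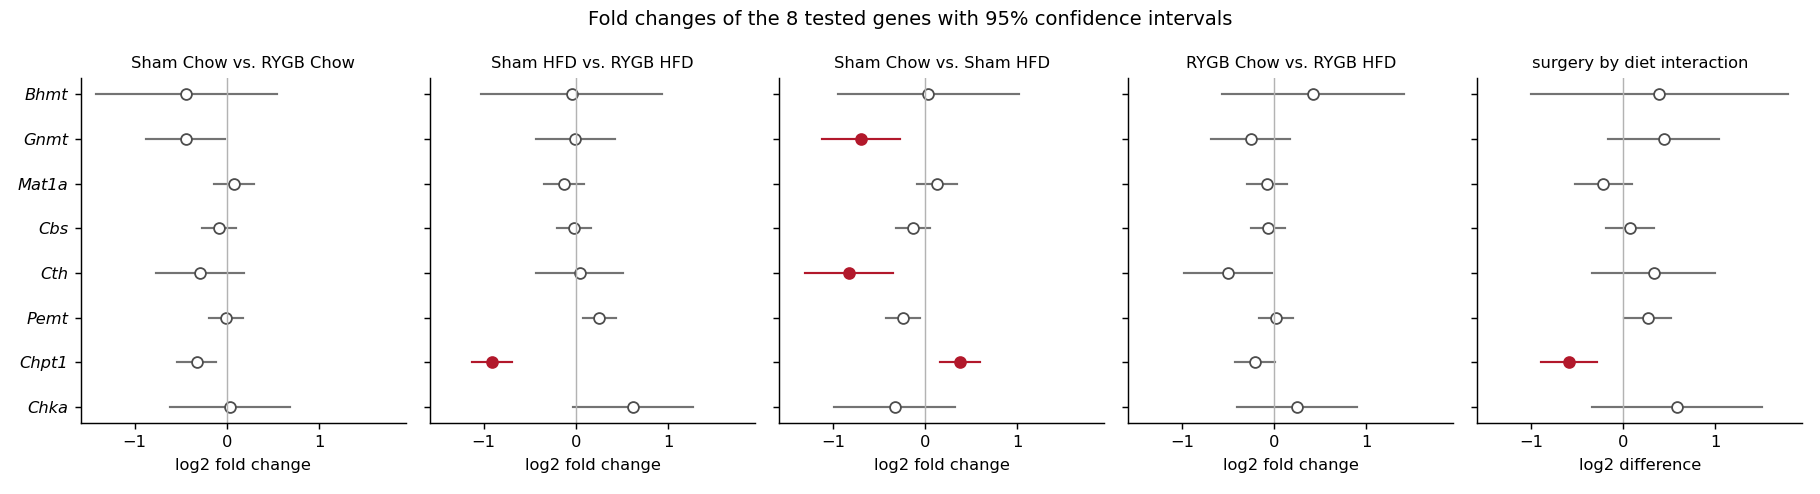
Log2 fold changes (points) with 95% confidence intervals (lines) of the 8 tested genes in the 4 contrasts, each the second group over the first, and in the surgery by diet interaction. Filled red points have an adjusted p under 0.05 (edgeR), which holds for *Chpt1* in 3 panels and for *Gnmt* and *Cth* in Sham Chow vs. Sham HFD.

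Across the 8 tested genes, 0 were called in Sham Chow vs. RYGB Chow by edgeR, DESeq2 or limma-voom, and 2 (*Gnmt* and *Chpt1*) had an unadjusted p under 0.05 in edgeR, as did 10.8% of all tested genes. In this contrast 0.0488% of all tested genes were called higher and 0.00814% lower, and 1.33% had groups that did not overlap. In RYGB Chow vs. RYGB HFD 0 of the 8 were called by edgeR, DESeq2 or limma-voom. Here 1 (*Cth*) had an unadjusted p under 0.05 in edgeR, against 2308 of all 12289 tested genes. The median log2 fold change of the 8 was -0.19 for surgery on chow, -0.01 for surgery on HFD, -0.19 for diet in sham mice and -0.07 for diet in RYGB mice, while the medians of all tested genes were -3.6e-05, 0.0095, -0.0047 and 0.0048. Without RYGB Chow replicate 3 the medians of the 8 were -0.11 for surgery on chow, -0.02 for surgery on HFD, -0.18 for diet in sham mice and -0.05 for diet in RYGB mice. In RYGB Chow vs. RYGB HFD 1 of the 8 (*Gnmt*) was then called, against 2.87% of all tested genes. At an unadjusted p under 0.05 in edgeR there were 3 of the 8, against 2173 of all 12258 tested genes.

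*Phgdh* (ENSMUSG00000053398) and *Psat1* (ENSMUSG00000024640), which encode phosphoglycerate dehydrogenase and phosphoserine aminotransferase, were close to undetected in 19 mice and present in 1. Stretches just upstream of their annotated starts are shown because the pair appeared in the same liver, and that of *Chpt1* because its groups differed. They are read 5′ to 3′ on the strand of the gene from RefSeq (GRCm38.p6), up to the start or to the first annotated exon, which are chr3:98339991-98340219 for *Phgdh*, chr19:15925060-15925309 for the upstream of the 2 RefSeq starts of *Psat1* and chr10:88504074-88504220 for *Chpt1*, all on the minus strand. Capitals mark CCAAT and GGGCGG on either strand.
Phgdh: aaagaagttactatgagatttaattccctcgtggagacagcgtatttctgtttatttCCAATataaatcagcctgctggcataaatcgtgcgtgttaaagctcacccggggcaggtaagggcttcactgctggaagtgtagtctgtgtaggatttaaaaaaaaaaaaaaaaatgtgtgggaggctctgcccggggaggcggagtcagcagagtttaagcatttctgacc
Psat1: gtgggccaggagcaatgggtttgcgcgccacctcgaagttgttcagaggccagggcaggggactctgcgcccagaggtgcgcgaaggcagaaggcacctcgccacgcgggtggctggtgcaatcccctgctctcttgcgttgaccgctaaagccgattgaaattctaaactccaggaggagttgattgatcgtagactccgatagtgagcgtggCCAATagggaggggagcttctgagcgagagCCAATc
Chpt1: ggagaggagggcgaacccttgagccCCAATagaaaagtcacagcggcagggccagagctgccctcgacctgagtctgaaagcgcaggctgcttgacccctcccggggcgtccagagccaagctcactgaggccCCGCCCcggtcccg
In the full window of 250 bases before the start, *Phgdh* and *Psat1* each held CCAAT at 2 places, and *Chpt1* at 1 place, along with GGGCGG at 5. Of these, 1 place of *Phgdh* and 4 of the GGGCGG places of *Chpt1* reach into the first exon and are not shown. Of all 32851 RefSeq windows of this length, 33.8% held CCAAT and 32.7% held GGGCGG on either strand. The letters AGGTCA and CACGTG, found in 14% and 6.02% of all windows, were in none of these 3 windows. The letters TGATGNAA, which the C/EBP-ATF composite element resembles, were not in the windows of these 3 genes and were in 3.45% of all windows. Windows were found for 8 of the 10 genes, and those of *Mat1a* and *Cth* were not.

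The *Phgdh* level was 23.5 CPM (428 counts) in RYGB Chow replicate 3, against 0 to 0.623 CPM (at most 11 counts) in the other 19 mice. In 3 mice no *Phgdh* read was counted, which allows up to 0.161 CPM in RYGB Chow replicate 2, 0.131 CPM in Sham HFD replicate 5 and 0.199 CPM in RYGB HFD replicate 5 (3 counts, counting error only). The *Psat1* level was 32.2 CPM (586 counts) in RYGB Chow replicate 3 and 0.0606 to 1.53 CPM (at most 32 counts) in the other 19. In the contrasts with RYGB Chow no call of either gene held without this 1 mouse. In Sham Chow vs. Sham HFD, which does not hold it, *Psat1* ranged from 0.0606 to 0.88 CPM and from 0.522 to 1.43 CPM, with overlap, and the exact permutation test gave p = 0.0317 (two-sided, unadjusted for the 40 tests of this kind). The edgeR model without a filter gave a log2 fold change of 1.56 there (adjusted p = 0.350). Without a filter on low counts, where 28411 genes were tested, *Psat1* was called in RYGB Chow vs. RYGB HFD at -3.66 on the log2 scale (adjusted p = 0.0275) and in the interaction at -5.22 (adjusted p = 0.0284). Without RYGB Chow replicate 3 these values were -0.52 (adjusted p = 0.772) and -2.09 (adjusted p = 0.243). In Sham Chow vs. RYGB Chow *Psat1* was not called, at 4.34 (adjusted p = 0.0626) with this mouse and 1.22 (SE 0.597, adjusted p = 0.783) without it.

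Of the 10 genes, RYGB Chow replicate 3 was thus the highest of 20 mice for 2 (*Phgdh*, *Psat1*) and the lowest for 2 (*Bhmt*, *Gnmt*), whereas any other mouse was the extreme for at most 2 of the 10 in all. Across all tested genes this mouse was an extreme for 18.7%, close to the 18.6% of the next mouse. The other 69 tested genes of the pathways, listed by function, gave 43.5%, with 4 highest and 26 lowest, against at most 18.8% for any other mouse. By list the lowest values covered 4 of 5 genes of choline oxidation to glycine, 6 of 12 of folate one-carbon metabolism, 6 of 14 of serine and glycine metabolism, 4 of 12 of the methionine cycle, 4 of 10 of transsulfuration and cysteine use, and 2 of 16 of choline and phosphatidylcholine metabolism. The following examples were chosen after their values were seen. *Aldh1l1*, the cytosolic formyltetrahydrofolate dehydrogenase of hepatocytes, stood at 341 CPM against 711 to 1560 CPM in the other 19 mice. *Agxt*, a glyoxylate and serine aminotransferase, stood at 77.5 CPM against 169.9 to 418 CPM. *Dmgdh*, which demethylates the dimethylglycine that *Bhmt* releases, stood at 218 CPM against 415 to 573 CPM.

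The genes above the other mice in RYGB Chow replicate 3 included 2 mitochondrial folate enzymes, *Aldh1l2* and *Mthfd2*, and genes known as targets of ATF4, the transcription factor of the amino acid response. *Aldh1l2* stood at 11.7 CPM against 0.0665 to 1.08 CPM in the other 19 mice, and *Mthfd2* at 7.03 CPM against 0.521 to 1.86 CPM, and both failed the filter. The other mitochondrial folate enzymes of the lists did not stand above the other mice. *Shmt2* was the lowest of the 20 mice at 170.2 CPM, against 204 to 290 CPM, *Mthfd2l* was the lowest at 2.09 CPM, against 2.46 to 4.30 CPM, and *Mthfd1l* lay inside the range. *Psph*, the last enzyme of serine synthesis, stood at 8.84 CPM against 2.45 to 7.63 CPM. The list of 22 tested ATF4 targets includes *Atf4* itself. Of these 22 genes this mouse had the highest level in 16, *Atf4* among them, and the lowest in 1. Any other mouse was an extreme for at most 6. *Asns*, asparagine synthetase, stood at 30.4 CPM against 0.0599 to 10.1 CPM, *Fgf21*, a hepatic hormone, at 74.2 CPM against 1.57 to 29.7 CPM, and *Atf5*, a related transcription factor, at 719 CPM against 198 to 389 CPM (all chosen after their values were seen).

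**Figure D3:**
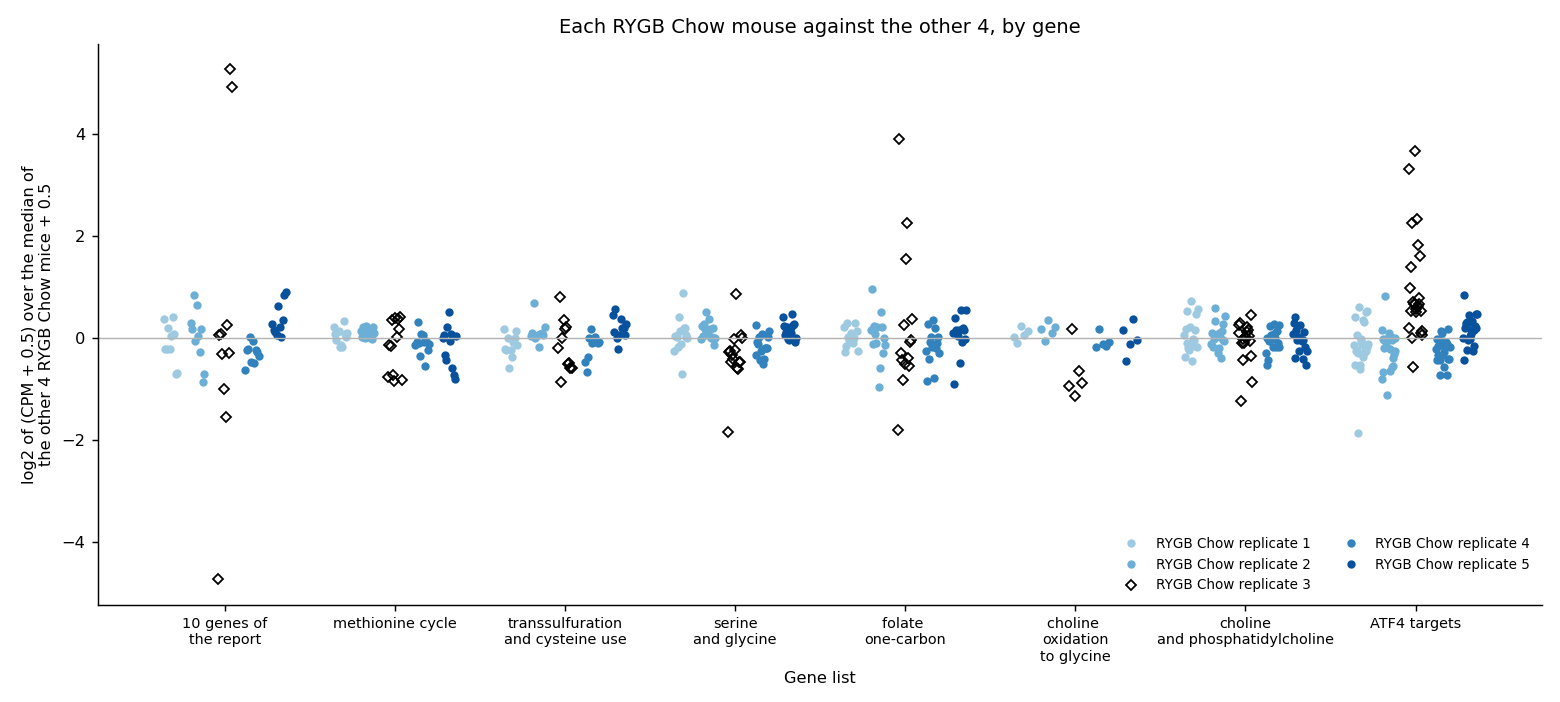
For each RYGB Chow mouse and each gene, log2 of CPM + 0.5 over the median of the other 4 RYGB Chow mice + 0.5, by gene list, with genes that failed the filter included. Open diamonds are RYGB Chow replicate 3. They reach 5.26 for *Phgdh* and -4.73 for *Bhmt* and lie mostly above 0 for ATF4 targets and below 0 for choline oxidation to glycine.

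All 22 tested ATF4 targets had a log2 fold change above 0 in Sham Chow vs. RYGB Chow, as had 6143 of all 12289 tested genes. In RYGB Chow vs. RYGB HFD all 22 lay below 0, as did 6036 of all tested genes. By edgeR 0 were called in either contrast. At an unadjusted p under 0.05 in edgeR there were 3 and 9 of the 22, against 1325 and 2308 of all tested genes. Without RYGB Chow replicate 3 the counts were 15 of 22 above 0 and 16 of 22 below 0, against 6012 and 5973 of 12258 tested genes. Those at an unadjusted p under 0.05 were then 1 and 2 of the 22, against 914 and 2173 of all tested genes. In the same mouse all 6 macrophage markers were the highest of the 20 mice, with a summed level of 465 CPM, against a group median of 259 CPM and at most 353 CPM in RYGB HFD. The summed periportal hepatocyte markers were lowest there at 2243 CPM, against at least 3253 CPM in the other groups. The summed pericentral hepatocyte markers were also lowest there at 7791 CPM, against at least 8843 CPM in the other groups. The summed hepatocyte markers were 69714 CPM, the lowest of RYGB Chow (median 113652 CPM, at most 117220 CPM). This was below all mice of Sham Chow (at least 77089 CPM) and RYGB HFD (at least 93309 CPM), and inside the range of Sham HFD (66393 to 78889 CPM). The part of these markers in the levels of this liver was not tested.

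In Sham HFD vs. RYGB HFD, 14 of the 69 other pathway genes were called, 5 higher and 9 lower in RYGB HFD, or 20.3% against 16.4% of all tested genes, and the median log2 fold change of the 69 was -0.05. The 5 higher genes were *Mat2a*, *Gcat*, *Gpcpd1*, *Mtrr* and *Grhpr*. *Mat2a*, the S-adenosylmethionine synthetase outside hepatocytes, was at 86.4, 85.4, 69.5, 73.9 and 61.7 CPM in Sham HFD and at 111, 129.7, 124, 121 and 126 CPM in RYGB HFD, without overlap, which is a rise of 0.70 on the log2 scale (SE 0.0980, adjusted p = 6.18e-05). *Gcat*, which cleaves a product of threonine into glycine, rose by 0.78 (SE 0.150), and *Gpcpd1*, which hydrolyzes glycerophosphocholine, by 0.67 (SE 0.207). The call of *Gpcpd1* held in 16 of 20 models without 1 mouse, that of *Mtrr* (0.58, SE 0.187), which reactivates methionine synthase, in 14, and that of *Grhpr* (0.21, SE 0.0721), a glyoxylate reductase, in 4, with adjusted p-values of up to 0.10, 0.116 and 0.135.

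The genes called lower in RYGB HFD included *Mthfd1l*, a mitochondrial folate enzyme, at -1.77 (SE 0.573), *Csad*, the decarboxylase of taurine synthesis, at -1.62 (SE 0.328), *Gclc*, the catalytic subunit of the first enzyme of glutathione synthesis, at -0.64 (SE 0.179), *Srr*, serine racemase, at -0.55 (SE 0.0975), and *Suox*, sulfite oxidase, at -0.40 (SE 0.106). Of these, *Mthfd1l* was close to the filter, at 0.237 to 4.48 CPM in the 19 mice other than RYGB Chow replicate 3. *Shmt1*, the cytosolic serine hydroxymethyltransferase, fell by 0.35 on the log2 scale (SE 0.107) and *Pcyt1a*, which makes the CDP-choline used by *Chpt1*, fell by 0.31 (SE 0.0808). *Pcyt1a* was at 111, 106, 108, 110.2 and 116 CPM in Sham HFD and at 98.1, 83.1, 96.8, 85.2 and 82.2 CPM in RYGB HFD, without overlap. The call of *Mthfd1l* held in 12 of 20 models without 1 mouse, that of *Shmt1* in 17 and that of *Gclc* in 19, with adjusted p-values of up to 0.0913, 0.0787 and 0.0554 (without Sham HFD replicate 4), while those of *Csad*, *Srr*, *Suox* and *Pcyt1a* held in all 20.

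In Sham Chow vs. Sham HFD, 12 of the 69 were called, 4 higher and 8 lower in Sham HFD (17.4%, against 21.6% of all tested genes), with a median log2 fold change of -0.08. The lower genes included *Csad* (-1.21, SE 0.323), *Gpcpd1* (-1.16, SE 0.209), *Gcat* (-1.13, SE 0.149), *Etnppl*, a phosphoethanolamine lyase (-0.78, SE 0.197), *Ethe1*, a mitochondrial sulfur dioxygenase (-0.71, SE 0.200), and *Ahcy*. *Ahcy*, which splits S-adenosylhomocysteine into homocysteine and adenosine, was at 1959, 1777, 1931, 2113 and 2488 CPM in Sham Chow and at 1317, 1251, 1246, 1509 and 1300 CPM in Sham HFD, without overlap (log2 fold change -0.63, SE 0.128, adjusted p = 0.00165). The higher genes included *Slc44a2*, a choline transporter-like protein (0.69, SE 0.172), and *Pcyt1a* (0.29, SE 0.0807). The calls of the genes named here held in all 20 models without 1 mouse. Both contrasts use the Sham HFD mice, so opposite values in them are not independent of each other.

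**Figure D4:**
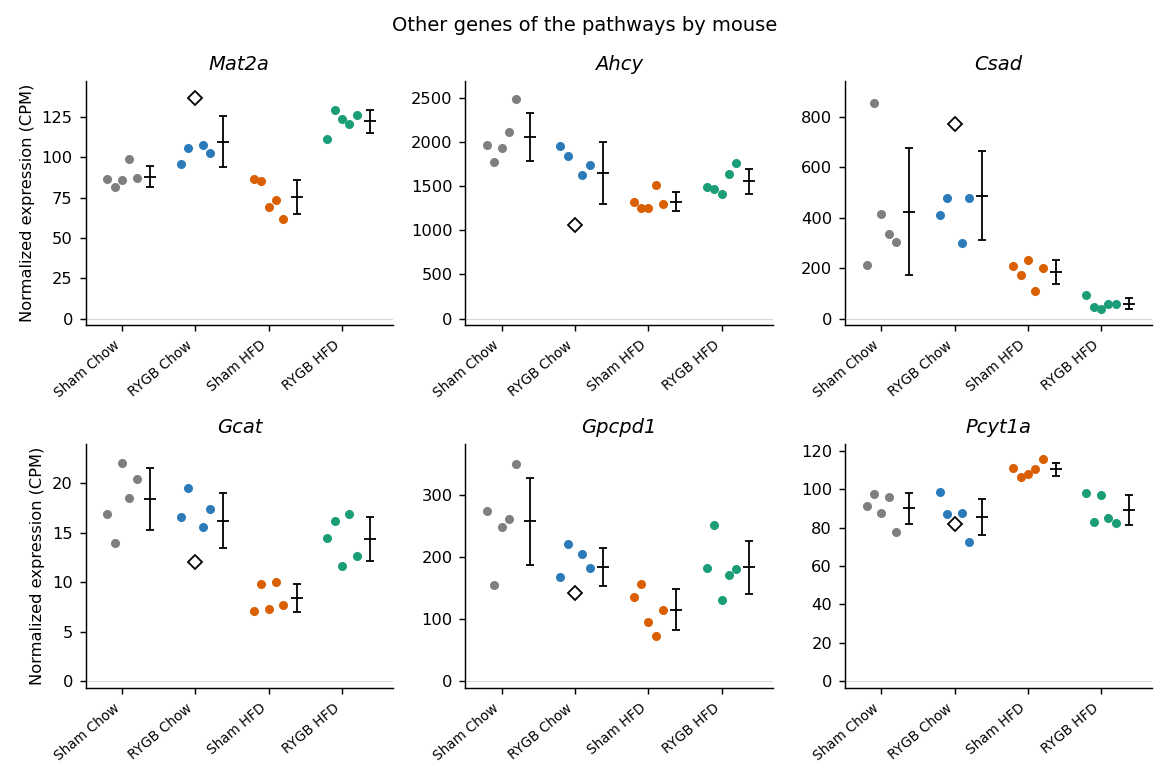
Normalized expression (CPM, linear axis) of 6 other genes of the pathways in each mouse, with points, diamond and bars as in the plot of the 10 genes. *Csad* was lower in all RYGB HFD mice (38.3 to 95.6 CPM) than in all mice of the other groups, and *Pcyt1a* was higher in all 5 Sham HFD mice than in every other mouse.

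In RYGB Chow vs. RYGB HFD, 3 of the 69 were called (4.35%, against 3.65% of all tested genes). These were *Csad*, *Ethe1* and *Ggh*, all lower. *Csad* was at 412, 477, 771, 299 and 479 CPM in RYGB Chow and at 95.6, 45.1, 38.3, 59.3 and 59.9 CPM in RYGB HFD, with no overlap and a log2 fold change of -3.03 (SE 0.345, adjusted p = 2.46e-05). *Ethe1* fell by 0.87 on the log2 scale (SE 0.202) and *Ggh*, a folate hydrolase, fell by 0.59 (SE 0.120). The call of *Ethe1* held in 17 of 20 models without 1 mouse, with an adjusted p of up to 0.0577 (without RYGB HFD replicate 3), and those of *Csad* and *Ggh* in all 20. In Sham Chow vs. RYGB Chow 0 of the 69 were called by edgeR, with a median log2 fold change of -0.08. At an unadjusted p under 0.05 in edgeR there were 17 of the 69, against 1325 of all 12289 tested genes (10.8%). Without RYGB Chow replicate 3 the count was 9 of the 69, against 914 of all 12258 tested genes, and the median of the 69 was -0.05.

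The interaction called 4 of the 69 (5.8%, against 5.06% of all tested genes). *Gcat* (0.96, SE 0.209) and *Gpcpd1* (1.16, SE 0.293) lay above 0, and *Csad* (-1.83, SE 0.455) was among those below 0. The call of *Csad* was lost without Sham HFD replicate 3 (adjusted p = 0.0505), that of *Gpcpd1* held in 17 of 20 models without 1 mouse (adjusted p up to 0.0564), and that of *Gcat* held in all 20.

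Of the 22 ATF4 targets, 3 were called in Sham HFD vs. RYGB HFD (13.6%, against 16.4% of all tested genes) and 5 in Sham Chow vs. Sham HFD (22.7%, against 21.6%), shares near those of all genes. *Vldlr*, a lipoprotein receptor, *Atf3*, a stress-responsive transcription factor, and *Sesn2*, a stress-responsive regulator of amino acid signalling, were higher in Sham HFD than in Sham Chow and RYGB HFD. In Sham HFD vs. RYGB HFD they fell by 1.77, 1.51 and 0.80 on the log2 scale (SE 0.273, 0.406 and 0.201), and in Sham Chow vs. Sham HFD they rose by 1.30, 1.80 and 0.90 (SE 0.266, 0.412 and 0.202). *Nupr1*, a stress-responsive chromatin protein, rose by 1.85 in the latter (SE 0.634), a call that held in 12 of 20 models without 1 mouse (adjusted p up to 0.0930), and *Atf4* itself fell by 0.36 (SE 0.115), which held in 15 (adjusted p up to 0.0767). *Atf3* and *Nupr1* were close to the filter, at 0.182 to 4.30 and 0.214 to 3.47 CPM in the 19 mice other than RYGB Chow replicate 3. The interaction was called for *Vldlr* (-1.91, SE 0.382) and *Sesn2* (-1.18, SE 0.286). Without RYGB Chow replicate 3, 6 in place of 3 of the list were called in Sham HFD vs. RYGB HFD (27.3%, against 17.6% of all tested genes). This mouse is in neither group of that contrast and enters it only through the spread that all groups share in the model. It was the highest or lowest mouse for most of this list. How far leaving it out changed the spread of these genes was not tested, and the added calls are not read as a result about the list.

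Summed marker levels of several cell types differed between the groups, and no marker of these lists was at 0 in all mice. The 5 stellate cell and fibroblast markers summed to 288 to 337 CPM in Sham HFD, above all mice of Sham Chow (132 to 215 CPM), RYGB Chow (183 to 237 CPM) and RYGB HFD (186 to 284 CPM). The 6 hepatocyte markers summed to 66393 to 78889 CPM in Sham HFD, 77089 to 97371 CPM in Sham Chow and 93309 to 112256 CPM in RYGB HFD. The 5 periportal hepatocyte markers had a median sum of 5664 CPM in Sham Chow and 4708 CPM in RYGB Chow, against 3562 CPM in Sham HFD and 3554 CPM in RYGB HFD, with ranges that overlapped between each HFD group and Sham Chow. The 6 macrophage markers did not follow Sham HFD alone. Their median sum was 144 CPM in Sham Chow, against 259 CPM in RYGB Chow, 283 CPM in Sham HFD and 308 CPM in RYGB HFD. The part of these markers in the differences of *Chpt1*, *Gnmt*, *Cth* and the other genes called in contrasts with Sham HFD was not tested.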

How the data were processed

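Liver RNA of 20 mice was sequenced by the study as stranded paired-end libraries. The deposited values are raw read counts per gene, which the authors made with Trimmomatic 0.36, HISAT2 2.1.0 (mm10) and featureCounts 1.5.0-p3, per the submitters' processing notes. The annotation release, strand setting and treatment of multimapping reads are not given in the sources used here, so overlapping genes and paralogs are uncertain. Symbols came from GENCODE M21 (54495 of 54532 genes). From the counts, TMM factors, CPM and 1 quasi-likelihood model of all 20 mice by group were computed with edgeR 4.0.16 (R 4.3.3), with two-sided tests and Benjamini-Hochberg adjustment across the 12289 genes that 3 or more mice had at 2 CPM or above, the filter of the study. Total counts were 14604854 to 22537498 (median 19056997), and count limits cover counting error only. Alternatives were DESeq2 1.42.0, limma-voom 3.58.1, other scaling and filters, fits to 2 groups, a replicate block, and models without each mouse. The model was tested on simulated data. Exact permutation tests used log2(CPM + 0.5). The 10 genes and all lists were chosen with earlier results of these data known. Beside the 10, genes are named by rule, per list (pathway, ATF4 targets) and contrast: up to 5 higher and 5 lower called genes with the largest change, and *Bhmt2*, *Mat2a*, *Ahcy*, *Shmt1*, *Psph*, *Chkb*, *Pcyt1a* and *Chdh*. Genes chosen after their values were seen are marked. Some genes that this rule would name are not reported here.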

Additional observations from a re-analysis of the deposited data

Results flagged for a closer look

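In 8 of the 40 combinations of the 10 genes and 4 groups, 1 mouse was far from the other 4 (a gap over 0.71 of the range of the group, Dixon's 95% limit). Chance gives about 1 in 20 such groups. RYGB Chow replicate 3 accounted for 3 of them, as the lowest mouse for *Gnmt* (513 CPM) and the highest for *Phgdh* (23.5 CPM) and *Psat1* (32.2 CPM). Sham Chow replicate 2 was the lowest for *Gnmt* (1328 CPM) and the highest for *Phgdh* (0.517 CPM, 10 counts). Sham Chow replicate 4 was the lowest for *Cbs* (395 CPM), Sham HFD replicate 5 the highest for *Pemt* (251 CPM), and RYGB Chow replicate 2 the highest for *Chka* (64.3 CPM). The *Bhmt* level of 91.4 CPM in RYGB Chow replicate 3 did not pass this limit.

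The HFD effect on *Chpt1* differed between sham and RYGB mice, by -0.58 on the log2 scale in the surgery by diet interaction (edgeR, adjusted p = 0.0244). The interaction holds the heavier Sham HFD mice, so body weight cannot be told apart from surgery and diet in it.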

How the results depend on the processing

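Among the 8 tested genes, the calls of *Chpt1* and *Cth* held under every alternative run, and that of *Gnmt* under all except the model without Sham HFD replicate 2. In Sham HFD vs. RYGB HFD 2 in place of 1 of the 10 genes were called with DESeq2, with limma-voom and in a fit to only these 2 groups, and 1 to 2 without 1 mouse, the added gene being *Pemt* (adjusted p = 0.0366, 0.047 and 0.0182). In RYGB Chow vs. RYGB HFD 1 in place of 0 was called with no filter (*Psat1*), and 0 to 1 without 1 mouse (*Gnmt*, without RYGB Chow replicate 3). In the interaction 2 in place of 1 were called with no filter. Of the other pathway genes, 20 in place of 12 were called in Sham Chow vs. Sham HFD with library size only, 6 in place of 3 in RYGB Chow vs. RYGB HFD with DESeq2, and 2 (without Sham HFD replicate 3) to 7 (without Sham Chow replicate 2) in place of 4 in the interaction without 1 mouse. Over all tested genes, library size only gave 2279 higher and 554 lower calls in Sham Chow vs. Sham HFD, in place of 1337 and 1319. DESeq2 gave 399 and 352 in RYGB Chow vs. RYGB HFD, in place of 245 and 203. The interaction had 177 calls above 0 and 200 below 0 of 12242 genes without Sham HFD replicate 3. Without Sham Chow replicate 2 it had 376 and 429 of 12276, in place of 305 and 317 with all mice. The cause of these shifts was not tested.

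Directions turned only for log2 fold changes that were not called. With library size only, *Pemt* was at 0.0294 in Sham Chow vs. RYGB Chow, *Cth* at -0.0562 in Sham HFD vs. RYGB HFD and *Cbs* at -0.0715 in the interaction. Without 1 mouse, Sham Chow vs. RYGB Chow gave -0.0104 to 0.167 for *Mat1a*, -0.0826 to 0.0425 for *Pemt* and -0.177 to 0.180 for *Chka*. Sham HFD vs. RYGB HFD gave -0.143 to 0.0816 for *Bhmt*, -0.0571 to 0.0594 for *Gnmt*, -0.0798 to 0.00919 for *Cbs* and -0.0979 to 0.110 for *Cth*, and Sham Chow vs. Sham HFD -0.162 to 0.121 for *Bhmt*. RYGB Chow vs. RYGB HFD gave -0.165 to 0.0119 for *Mat1a*, -0.0342 to 0.0914 for *Pemt* and -0.121 to 0.462 for *Chka*. *Phgdh* with no filter turned to 0.649 in this contrast and to 0.693 in the interaction without RYGB Chow replicate 3, a choice made after seeing the data.

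Replicate numbers did not pair the mice: deviations of same-numbered mice correlated at -0.257 to 0.165, with 5 of 30 pairs over 0.1, and 3 of 20 mice matched their own number best. The fit with the replicate block turned *Chka* to -0.00418 for surgery on chow and changed no call of the 8 tested genes.

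Over all genes, library size only moved the median log2 fold change to 0.122 in Sham Chow vs. Sham HFD and -0.125 in the interaction, and the split of higher and lower calls from 1337 and 1319 to 2279 and 554, from 305 and 317 to 151 and 597, and in Sham HFD vs. RYGB HFD from 1050 and 971 to 542 and 1497. DESeq2 called 66 higher and 26 lower in place of 6 and 1 for surgery on chow, 399 and 352 in place of 245 and 203 in RYGB Chow vs. RYGB HFD, and 439 and 493 in the interaction. In a fit to only the 2 groups, diet in RYGB mice had 94 and 90 calls and surgery on chow 0 and 0, while with no filter surgery on chow had 10 and 3. Depth limits *Phgdh* and *Psat1*, with at most 11 and 32 counts outside RYGB Chow replicate 3.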
